A study of Mus musculus with 31 samples.

Results

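The Krüppel-like factors (KLFs) are transcription factors that bind GC-rich and CACCC-containing DNA through zinc fingers at the end of the protein. The members described here are Klf2, Klf3, Klf4, Klf5, Klf6, Klf7, Klf9, Klf10 and Klf13, taken as every probe whose gene symbol in the array's annotation is exactly one of these names. Each of the 9 genes had 1 probe, so the set holds 9 of the 13872 probes on the array. For 7 of them enough values were present to enter the test, which covered 7325 probes, and Klf5 and Klf9 had too few. Klf10 was selected on its measured ratios, which in earlier results of these data lay below mock in wild-type cells given LPS and not in cells without MyD88. Its values are therefore given as a description, with no p-value and no call, though it is included in the closing counts on processing. The other members were taken with it as a family, also with results of these data known.

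Bone marrow came from wild-type (C57BL/6J) and MyD88-/- mice aged 6 to 8 weeks, and 8 days of culture with L929 cell supernatant, which supplies CSF-1, turned it into macrophages. They were treated for 2 hours with re-purified E. coli LPS at 10 ng/mL, with live log-phase E. coli at 1 bacterium per macrophage, or with medium alone (mock). Both genotypes received both stimuli, which makes 4 groups of 4 mice, and each spotted array paired stimulated with mock RNA of the same mouse. The labels give no detail of the MyD88 allele, and because an array compares RNA of 1 genotype its ratios do not check the genotype labels. The arrays were made in both dye orientations except for MyD88-/- LPS mouse 4, which has 1 array, so 31 arrays gave 16 mouse-level ratios.

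Values are log2 ratios, read as stimulated over mock, a direction taken as likely because no label states it. A difference of 1 on this scale is 2-fold. A ratio says nothing of the level of a message, so levels of different KLFs, or of 1 KLF in the mock cells of both genotypes, cannot be compared. An array carried between 5564 and 10497 values, and the number of arrays limits the precision, with a median standard error of a response of 0.202 to 0.205. Of 9 macrophage markers 8 had a probe and 6 had enough values to be tested, whereas 0 of 7 stromal markers with a probe had. Over the whole array 7325 of 13872 probes had enough values. Over the marker lists of other cell types, T cells had 1 tested gene, B cells 3, neutrophils 3, dendritic cells 2 and erythroid cells 1. No marker in any of these lists was called for a genotype difference, where 0.287% of all tested probes were called for LPS and 0.751% for E. coli. With shares this low, the lack of a call among so few markers says nothing of the mix of cells. In wild-type cells 2 macrophage markers were called lower with LPS and 1 with E. coli, and 1 dendritic cell marker higher with LPS. In MyD88-/- cells given LPS 1 macrophage and 1 B cell marker were called lower. Over all tested probes 17.0% were called in wild-type and 9.98% in MyD88-/- cells with LPS, and 21.2% and 10.8% with E. coli. In bulk RNA of this kind, a change in the share of cells that express a gene and a change in RNA per cell cannot be told apart.

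LPS is sensed by Toll-like receptor 4, which signals through the adaptor MyD88 and, separately, through the adaptor TRIF, and live Gram-negative bacteria engage this and other receptors. KLFs are among the early transcription factors that macrophages regulate after such signals. Klf2 and Klf4 are known for restraining or shaping inflammatory gene expression in macrophages and endothelium, Klf6 for acting together with NF-kB, and Klf10 is named in human cells as an early gene induced by transforming growth factor beta (TGF-beta). Klf3 is a repressor that recruits CtBP proteins, and Klf9, Klf10 and Klf13 are repressors that can recruit Sin3 proteins.

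Promoters of 7 of the 9 genes were matched by symbol in the RefSeq table for GRCm38.p6, with no entry for Klf5 or Klf10. The 250 bases before the start are shown for Klf2, Klf4 and Klf6, because they stand for a message above mock in every mouse, one below mock in every mouse, and one called in wild-type cells alone. Capitals mark the GC box GGGCGG, the CACCC box CCACCC, both on either strand, and in Klf2 a match to the site of MEF2, a factor known to act on the Klf2 promoter. The MEF2 search was added after the sequences had been seen.
Klf2, chr8:72318812-72319061, plus strand: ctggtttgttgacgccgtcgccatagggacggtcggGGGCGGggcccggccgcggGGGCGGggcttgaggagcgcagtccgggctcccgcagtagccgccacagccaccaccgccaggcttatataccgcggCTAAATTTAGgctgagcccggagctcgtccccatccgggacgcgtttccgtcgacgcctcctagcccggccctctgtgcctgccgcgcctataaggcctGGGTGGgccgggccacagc
Klf4, chr4:55532476-55532725, minus strand: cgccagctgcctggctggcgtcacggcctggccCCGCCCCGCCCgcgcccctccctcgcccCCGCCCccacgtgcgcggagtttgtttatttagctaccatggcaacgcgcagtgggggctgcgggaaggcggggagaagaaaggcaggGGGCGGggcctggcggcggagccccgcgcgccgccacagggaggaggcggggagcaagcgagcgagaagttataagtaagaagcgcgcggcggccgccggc
Klf6, chr13:5861239-5861488, plus strand: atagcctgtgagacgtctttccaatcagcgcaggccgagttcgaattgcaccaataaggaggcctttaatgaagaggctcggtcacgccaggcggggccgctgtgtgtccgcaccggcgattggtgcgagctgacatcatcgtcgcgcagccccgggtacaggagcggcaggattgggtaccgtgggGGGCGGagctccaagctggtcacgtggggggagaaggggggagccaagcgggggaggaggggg

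In the whole window of 300 bases, which runs to 50 bases past the start, Klf4 held 4 GC boxes, of which the pair at -217 and -212 share a base, Klf2 held 2 and Klf6 held 1. Among all 32851 promoters 35.7% held at least 1 GC box and 5.49% at least 4. A CACCC box stood in Klf2 at -19, on the minus strand, and 31.5% of promoters held one. The MEF2 match of Klf2 began at -118, and 3.19% of promoters held such a match. Among the members not printed, Klf3 held 6 GC boxes and 3 CACCC boxes, Klf13 held 3 and 1, Klf7 held 1 and 3, and Klf9 held neither. The AP-1 motif TGANTCA was found in Klf9 alone of the 7 (in 7.81% of all promoters). Neither the palindromic cyclic AMP response element nor the NF-kB site was found in these windows, against 1.79% and 8.46% of all promoters.

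The Klf10 message, which encodes the repressor first described as TGF-beta inducible, lay below mock in every wild-type mouse and near or above mock in MyD88-/- mice. In wild-type mice 1 to 4 given LPS the log2 ratios of Klf10 were -1.49, -0.95, -1.11 and -1.77. In MyD88-/- mice given LPS they were 0.27, 0.54, -0.09 and 0.43. The highest wild-type value of Klf10 lay well below the lowest MyD88-/- value, so the groups did not overlap. Of all tested probes 6.68% showed no overlap with LPS, and Klf10 was selected for this kind of pattern. With E. coli the wild-type ratios of Klf10 were -1.73, -1.64, -1.31 and -1.25. Those of MyD88-/- mice were 0.23, 0.58, 0.13 and 0.40, and here too the groups stood apart, with every wild-type mouse below 0 and every MyD88-/- mouse above 0. With E. coli 9.08% of all tested probes showed no overlap between the genotypes.

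The mean Klf10 ratio was -1.33 ± 0.37 (SD, n = 4 mice) in wild-type cells given LPS, which is 2.51-fold lower than mock, and 0.29 ± 0.28 in MyD88-/- cells. With E. coli the means were -1.48 ± 0.24 in wild-type cells, 2.8-fold lower than mock, and 0.34 ± 0.20 in MyD88-/- cells. As a description, MyD88-/- minus wild-type came to 1.62 for LPS and to 1.82 for E. coli. Among the 7325 probes these were the 27th and 15th highest differences, or the 27th and 15th lowest if the ratios run the other way. The wild-type ratio of Klf10 held the 89th lowest place with LPS and the 64th lowest with E. coli, places that would be highest in the other direction. The labels do not say whether the LPS and E. coli arrays of a mouse share their mock RNA, so these comparisons may share controls.

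Single arrays gave the same order for Klf10. All 16 wild-type arrays lay below 0, from -1.87 to -0.39 with LPS and from -1.9 to -0.98 with E. coli. The 15 MyD88-/- arrays ran from -0.21 to 1.00. Swapped arrays of Klf10 lay lower than their unswapped partners by 0.36 on average, and the largest gap within a pair was 1.12, in wild-type LPS mouse 2. In 12 of 15 pairs both orientations had the same sign, and the 3 pairs that did not were from MyD88-/- mice.

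**Figure D1:**
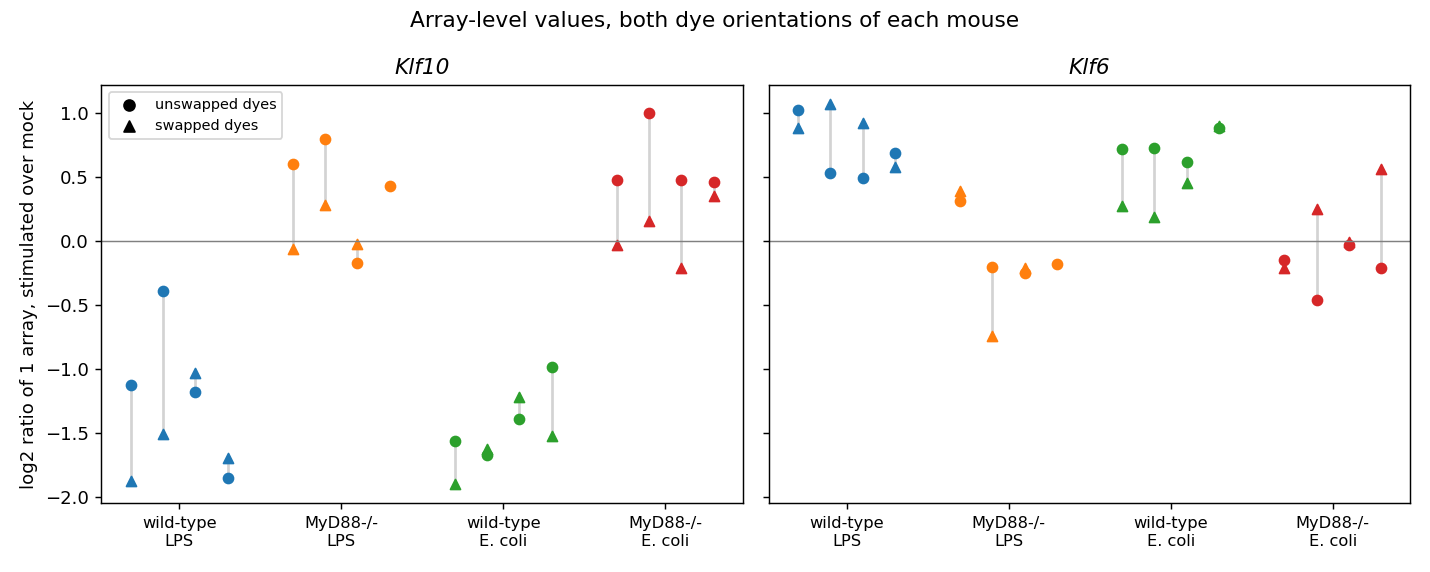
Log2 ratio of each array (vertical axis, stimulated over mock) for Klf10 and Klf6, by group along the horizontal axis, with mice 1 to 4 from left to right in each group. Circles are unswapped and triangles swapped arrays, joined by a line for a mouse. All 16 wild-type Klf10 arrays lie below 0 and all 16 wild-type Klf6 arrays above 0.

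Klf6, an activator found in many cell types and known for working with NF-kB, rose in wild-type cells and was not called in MyD88-/- cells. With LPS the wild-type ratios of Klf6 were 0.95, 0.80, 0.71 and 0.64 in mice 1 to 4. The MyD88-/- ratios were 0.35, -0.47, -0.23 and -0.18, all below the lowest wild-type value. With E. coli the wild-type ratios were 0.50, 0.46, 0.53 and 0.89. The MyD88-/- ratios were -0.18, -0.11, -0.02 and 0.18, again with no overlap between the genotypes. Of all tested probes 6.68% showed no overlap with LPS and 9.08% with E. coli. All 16 wild-type arrays of Klf6 were above 0, and 11 of 15 MyD88-/- arrays were below 0.

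The rise of Klf6 in wild-type cells was 0.77 ± 0.13 (limma SE, n = 4 mice, adjusted p = 0.000595) with LPS, or 1.71-fold. It was 0.59 ± 0.13 (adjusted p = 0.00398), or 1.51-fold, with E. coli. In MyD88-/- cells the ratios were -0.13 ± 0.13 (adjusted p = 0.612) and -0.03 ± 0.13 (adjusted p = 0.924). The difference itself did not pass the threshold over all probes for either stimulus. MyD88-/- minus wild-type was -0.91 ± 0.18 for LPS (95% interval -1.3 to -0.52, adjusted p = 0.056) and -0.63 ± 0.18 for E. coli (-1.02 to -0.24, adjusted p = 0.137). It passed for both stimuli in an array-level fit with a dye term (adjusted p = 0.00581 and 0.0478). That fit took arrays, not mice, as its units, with a correlation of 0.118 between the arrays of a mouse and stimulus. The difference also passed for LPS without MyD88-/- LPS mouse 1 (0.0148), and for E. coli on unswapped arrays alone (0.0278). Under other alternatives its adjusted p reached 0.226 for LPS and 0.269 for E. coli. The wild-type E. coli rise of Klf6 gave an adjusted p of 0.0557 in a fit on that group alone.

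**Figure D2:**
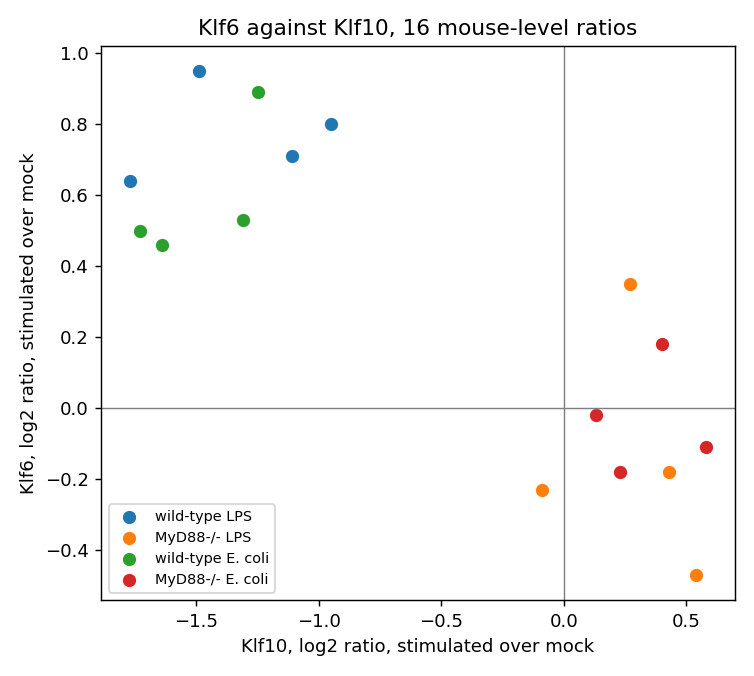
Klf6 against Klf10, both as log2 ratio of stimulated over mock (axes), each point 1 of the 16 mouse-level ratios and coloured by group. The 8 wild-type points lie at low Klf10 and high Klf6, and the 8 MyD88-/- points lie from -0.09 to 0.58 for Klf10 and from -0.47 to 0.35 for Klf6, in 2 clusters that follow genotype.

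As log2 ratios to mock, Klf6 stood above Klf10 in wild-type cells and Klf10 above Klf6 in most MyD88-/- mice. Across the 16 ratios the points fall into 2 clusters by genotype, so no pooled correlation is read from them. Within wild-type cells the Klf10 ratio was the lower of the pair in 8 of 8 cases. In MyD88-/- cells it was the higher in 7 of 8, the exception being MyD88-/- LPS mouse 1, where Klf10 stood at 0.27 and Klf6 at 0.35. Klf10 was selected for its low wild-type ratios, so this order is built in by that choice and is given as a description.

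Klf4, a zinc-finger factor that drives monocyte differentiation and is known to favour the alternative activation of macrophages, fell in all 4 groups by a similar amount. The wild-type LPS ratios of Klf4 were -1.68, -1.32, -1.70 and -1.50, and those of MyD88-/- cells -1.10, -1.03, -1.42 and -2.32. With E. coli they were -1.49, -1.84, -1.09 and -1.0 in wild-type cells and -0.97, -1.61, -1.11 and -1.79 in MyD88-/- cells. Every mouse was below 0, as was each of the 31 arrays (lowest -2.43, highest -0.45), and the genotypes overlapped.

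The fitted falls of Klf4 were -1.55 ± 0.20 (adjusted p = 6.32e-05) and -1.47 ± 0.20 (adjusted p = 0.000146) for LPS in wild-type and MyD88-/- cells, 2.93-fold and 2.76-fold lower than mock. For E. coli they were -1.36 ± 0.20 (adjusted p = 0.00018) and -1.37 ± 0.20 (adjusted p = 0.000249), 2.56-fold and 2.59-fold lower. These 4 calls of Klf4 held under every alternative run. MyD88-/- minus wild-type was 0.08 for LPS, with a 95% interval of -0.53 to 0.70, and -0.01 for E. coli (-0.63 to 0.60). The adjusted p were 0.948 and 0.991 by limma, which does not show that the genotypes act alike.

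Klf2, known in endothelium and in myeloid cells as a brake on NF-kB-driven genes, was above mock in every mouse. Its wild-type LPS ratios were 0.95, 0.67, 1.41 and 1.30, and in MyD88-/- cells they were 0.06, 0.70, 1.45 and 1.16. With E. coli the ratios of Klf2 were 1.10, 0.48, 1.83 and 1.63 in wild-type cells and 0.44, 0.54, 1.08 and 0.85 in MyD88-/- cells. In each group mice 3 and 4 had higher ratios than mice 1 and 2, and the genotypes overlapped.

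In the fit Klf2 rose by 1.08 ± 0.23 with LPS in wild-type cells (2.12-fold, adjusted p = 0.00411) and by 1.26 ± 0.23 with E. coli (2.39-fold, adjusted p = 0.00106). In MyD88-/- cells it rose by 0.84 ± 0.23 with LPS (1.79-fold, adjusted p = 0.029). Leaving out MyD88-/- LPS mouse 2, 3 or 4 ended that Klf2 call (0.0671, 0.175 and 0.148), as did a fit on that group alone (0.131). With E. coli MyD88-/- cells gave 0.73 ± 0.23 (adjusted p = 0.0582), a value that passed with arrays centred (0.0491), on unswapped arrays (0.0305), with a dye term (0.0029) and without MyD88-/- LPS mouse 1 (0.0382) or wild-type E. coli mouse 2 (0.0373). The genotype difference of Klf2 was -0.24 for LPS (95% interval -0.94 to 0.46) and -0.53 for E. coli (-1.23 to 0.16), with adjusted p of 0.863 and 0.524.

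Klf3, the CtBP-binding repressor, rose in all 4 groups, though less evenly between mice. The wild-type LPS ratios of Klf3 were 1.48, 0.78, 0.78 and 1.02, and in MyD88-/- cells they were 0.45, 0.96, 0.90 and 1.60. With E. coli they were -0.36, 1.49, 1.37 and 1.21 in wild-type cells, where mouse 1 stood apart below 0, and 1.01, 1.06, 1.12 and 0.51 in MyD88-/- cells. The fitted values were 1.01, 0.98, 0.93 and 0.92 with LPS in wild-type and MyD88-/- cells and then with E. coli in the same order of genotypes, each ± 0.25 (SE), with adjusted p of 0.0119, 0.0215, 0.0163 and 0.0283. On a linear scale these were 2.02-, 1.97-, 1.9- and 1.9-fold.

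These Klf3 calls depended on single mice. The wild-type LPS call ended without wild-type LPS mouse 1 (adjusted p = 0.0764), and the MyD88-/- LPS call without MyD88-/- LPS mouse 2, 3 or 4 (0.0675, 0.0655 and 0.15). The wild-type E. coli call of Klf3 ended without wild-type E. coli mouse 2, 3 or 4 (0.099, 0.0876 and 0.0766), and without mouse 1 the value was 1.36 (adjusted p = 0.000337). The MyD88-/- E. coli call ended without MyD88-/- E. coli mouse 1, 2 or 3 (0.0881, 0.116 and 0.116). Unswapped arrays alone ended both MyD88-/- calls of Klf3 (0.0907 for LPS and 0.13 for E. coli), and fits on 1 group alone ended those of MyD88-/- LPS (0.0593) and wild-type E. coli (0.125). The 95% interval of the genotype difference of Klf3 ran from -0.80 to 0.73 for LPS and from -0.77 to 0.76 for E. coli, so a difference of that size in either direction cannot be told from none.

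**Figure D3:**
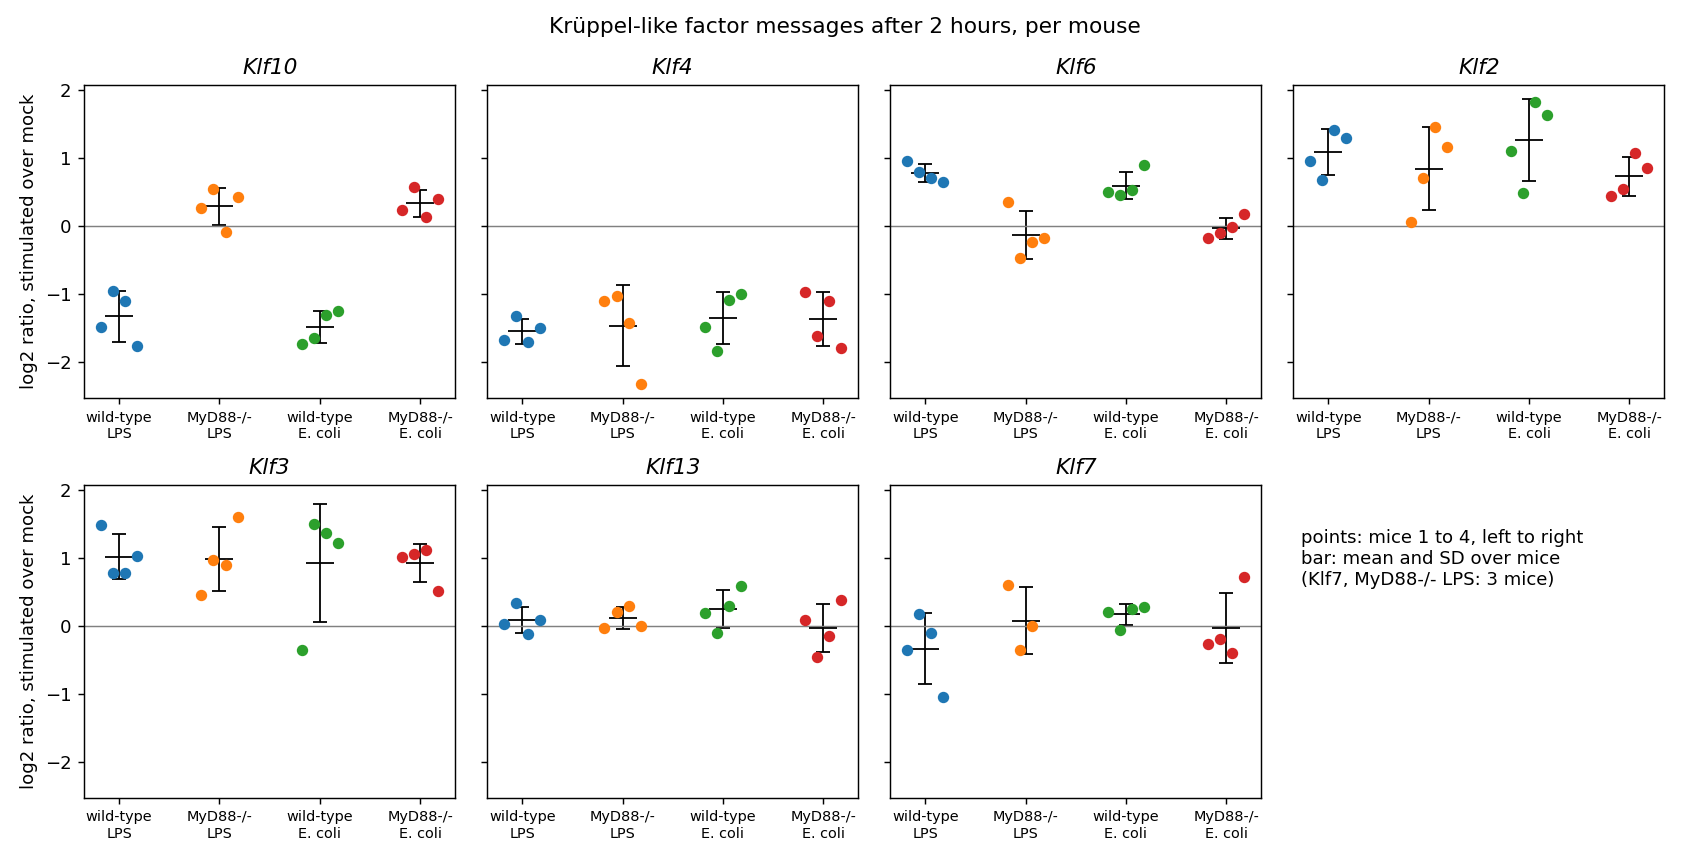
Log2 ratio of stimulated over mock (vertical axis) for the 7 tested KLFs in the 4 groups (horizontal axis). Points are mice 1 to 4 from left to right, and bars give the mean and SD over mice. The Klf10 mean is below 0 in both wild-type groups and above 0 in both MyD88-/- groups, the Klf6 mean is above 0 in the wild-type groups alone, Klf4 is below 0 and Klf2 above 0 in every mouse, and wild-type E. coli mouse 1 lies apart for Klf3.

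Klf13, a Sin3-binding repressor known in human T cells for late activation of the chemokine gene CCL5, was not called in any group. Its 16 ratios ran from -0.46 to 0.58, and the fitted values were 0.08, 0.11, 0.24 and -0.04 in the same order of groups, with adjusted p between 0.264 and 0.926. The 95% interval in wild-type E. coli ran from -0.06 to 0.54. Klf7, known best from the developing nervous system, had 15 ratios between -1.05 and 0.72, since MyD88-/- LPS mouse 4 gave no value. Its fitted values were -0.34, 0.07, 0.17 and -0.03, with adjusted p from 0.324 to 0.957. In 7 of 12 dye pairs of Klf7 both orientations had the same sign.

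Klf5 and Klf9 were rarely measured. Klf5, which promotes proliferation in epithelium and smooth muscle, had values on 6 of 31 arrays apart from 1 at the floor of the authors' scale, and 5 mouse-level ratios from -4.84 to 2.00. The only dye pair, of wild-type LPS mouse 4, gave 1.26 swapped and -1.27 unswapped. Klf9, a glucocorticoid-responsive repressor, had 6 ratios, 1.00 and -0.03 in wild-type LPS, -0.27 and -1.86 in MyD88-/- LPS, 0.28 in wild-type E. coli and -0.59 in MyD88-/- E. coli. Neither gene can be placed on the side of a rise or a fall from these values.

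Klf10 was left out of the counts of calls here and in the comparisons of genotypes and stimuli that follow. Of the 6 other tested members 4 were called with LPS in wild-type cells, where 17.0% of all tested probes were called. These were 3 higher (7.99% of all probes) and 1 lower (9.04%). For MyD88-/- LPS 3 were called against 9.98% of all probes, 2 higher (5.28%) and 1 lower (4.7%). For wild-type E. coli it was 4 against 21.2%, 3 higher (9.43%) and 1 lower (11.8%). For MyD88-/- E. coli it was 2 against 10.8%, 1 higher (6.35%) and 1 lower (4.42%). These contrasts were known when the set was chosen, so nothing is read from the counts. The median ratio of the 6 was 0.43, 0.09, 0.42 and -0.03 in the same order, against -0.05, -0.05, -0.06 and -0.05 over all tested probes. The median size of the change, without sign, was 0.89, 0.49, 0.76 and 0.38 for these members and 0.28, 0.23, 0.30 and 0.23 for all probes.

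For the genotype difference 0 of the 6 members other than Klf10 were called by limma with either stimulus, where 0.287% of all probes were called for LPS and 0.751% for E. coli. Higher in MyD88-/- cells were 0.0683% and 0.205% of all probes, and lower were 0.218% and 0.546%. At an unadjusted p under 0.05 stood 1 of the 6 with each stimulus, beside 8.91% of all tested probes with LPS and 13.3% with E. coli. That member was Klf6. Its mouse values alone among the 6 showed no overlap between genotypes, while 6.68% of all tested probes showed none with LPS and 9.08% with E. coli.

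**Figure D4:**
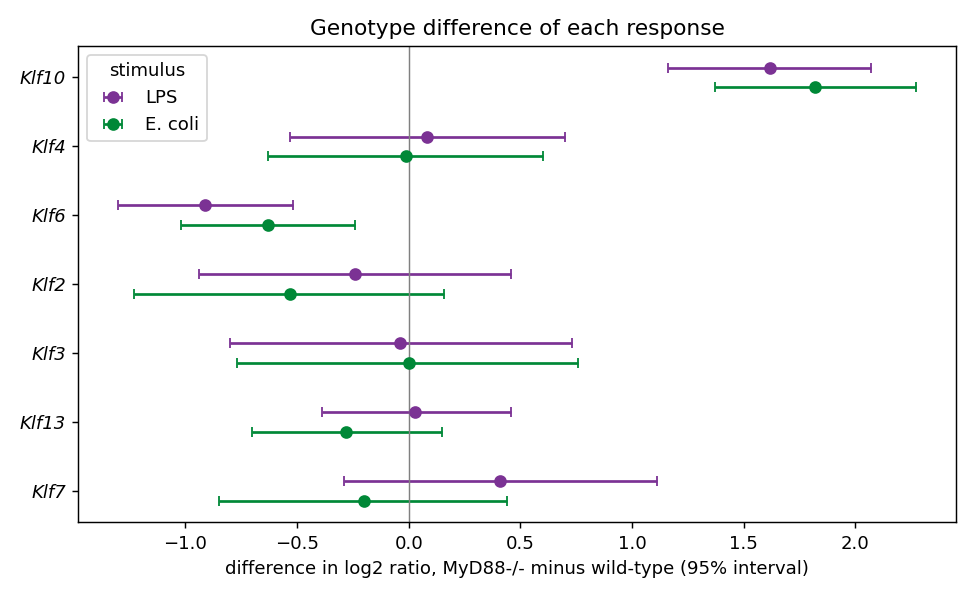
Difference of the log2 ratio between genotypes (horizontal axis, MyD88-/- minus wild-type) for the 7 tested KLFs (vertical axis), with LPS in purple and E. coli in green. Points are fitted values and bars 95% intervals. Klf10 lies to the right at 1.62 and 1.82, Klf6 to the left at -0.91 and -0.63, and the intervals of the other members cross 0. Klf10 was selected on its ratios, so its bars do not allow for that choice and are not read as a test.

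The stimuli were compared as E. coli minus LPS, which ran from -0.18 (Klf6) to 0.51 (Klf7) in wild-type cells and from -0.15 (Klf13) to 0.10 (Klf6) in MyD88-/- cells. None of the 6 members other than Klf10 was called by limma in either comparison or in the interaction of genotype and stimulus, and 0 had an unadjusted p under 0.05, beside 0 called of 7325 probes (0.0%) and 297, 177 and 219 of all probes under 0.05 without adjustment. The 95% intervals of these stimulus differences reached between 0.39 and 0.77 to either side of the value. These widths are not adjusted for the 7325 probes, so a call needed a difference larger than that. The lack of a call does not show that the stimuli act alike. The mouse values of the stimuli overlapped for all 7 members in both genotypes, while 2.65% of all probes in wild-type and 2.32% in MyD88-/- cells showed no overlap.

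Of the other members of the KLF and SP family, 8 of 17 had a probe and Klf15, Sp1, Sp4 and Sp6 had enough values. Over all tested probes 9.98% to 21.2% were called in a response, 0.287% and 0.751% in a genotype difference and 0.0% in the rest. None of these 4 family members was called in any of the 9 comparisons, and with 4 genes nothing is read from this. The nearest was Klf15, a regulator of amino acid and lipid metabolism, at 0.82 ± 0.32 with E. coli in wild-type cells (adjusted p = 0.0815), with mouse values of 1.20, 0.99, -0.08 and 1.19. Sp1, the general GC-box activator that competes with KLFs for sites, stood at -0.21 ± 0.16 there (adjusted p = 0.396).

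Among genes of TGF-beta and SMAD signalling, listed because Klf10 is a TGF-beta response gene, 10 of 24 were tested. In wild-type cells 4 fell with LPS (9.04% of all probes were called lower) and 4 with E. coli (11.8%). In MyD88-/- cells 2 fell with LPS (4.7%) and 1 with E. coli (4.42%). None of the list was called higher in these responses, where 5.28% to 9.43% of all probes were. The 4 of wild-type LPS became 2 without wild-type LPS mouse 2, the 4 of wild-type E. coli became 2 without wild-type E. coli mouse 4, and both became 1 on unswapped arrays. The 2 of MyD88-/- LPS, Ski and Smad1, became 0 without MyD88-/- LPS mouse 1, 2 or 3 and on unswapped arrays. They became 1 without mouse 4, without wild-type LPS mouse 1 or without MyD88-/- E. coli mouse 3. Neither Ski nor Smad1 passed there in a fit on that group alone (adjusted p = 0.0832 and 0.0797). Smad1 also failed there with a filter of 2 of 4 mice (0.0523), a filter on the groups compared (0.0564) and a dye term (0.0661). The 1 of MyD88-/- E. coli became 0 on unswapped arrays and 3 with a dye term, and reached 3 without MyD88-/- E. coli mouse 4 and 2 without wild-type LPS mouse 3 or wild-type E. coli mouse 1 or 2. The median over the list was -0.29, -0.09, -0.47 and -0.05 in the order of groups given above. Ski, a corepressor of SMAD proteins, fell to -0.95 ± 0.15 (adjusted p = 0.000455) in wild-type cells given LPS and to -0.79 ± 0.15 with E. coli (0.00177, but 0.2 on unswapped arrays and 0.0529 in a fit on that group alone). Smad1, a signal transducer of bone morphogenetic proteins, fell to -1.01 ± 0.15 with E. coli in wild-type cells (adjusted p = 0.00018) and to -0.71 in MyD88-/- cells (0.00549, but 0.113 on unswapped arrays and 0.08 in a fit on that group alone). The inhibitory Smad6 fell to -1.94 ± 0.36 with LPS in wild-type cells (adjusted p = 0.00129, and 0.185 on unswapped arrays). No gene of the list was called for a genotype difference, where 0.287% of all probes were called for LPS and 0.751% for E. coli. With 10 genes nothing is read from this. Smad6 stood at 1.83 for LPS (adjusted p = 0.213) and the receptor Tgfbr1 at 1.45 for E. coli (adjusted p = 0.12).

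Corepressors, coactivators and ubiquitin ligases of KLFs had 8 tested genes of 18, of which 2 fell in wild-type LPS (9.04% of all probes lower) and 1 in wild-type E. coli (11.8%). Ctbp1, the corepressor that Klf3 binds, fell to -0.53 ± 0.11 with LPS (adjusted p = 0.00312) and to -0.56 ± 0.11 with E. coli (0.00161) in wild-type cells, and passed in neither case in a fit on 1 group alone (0.0627 and 0.0576). Kat2a, an acetyltransferase, fell to -1.11 ± 0.26 with LPS (adjusted p = 0.00818), a call that ended without wild-type LPS mouse 2 (0.0521), with values at the floor kept (0.108) and with a dye term (0.0548). In MyD88-/- cells 0 of the 8 were called with LPS (9.98% of all probes) or with E. coli (10.8%). Kat2b stood at 0.35 (adjusted p = 0.365) for LPS and Sin3a at 0.57 (0.0674) for E. coli. With E. coli the 0 became 2 with a dye term, and 1 without MyD88-/- LPS mouse 4 or wild-type E. coli mouse 4.

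Of the kinases and factors upstream of Klf2 and Klf4 in the MEK5, ERK5 and MEF2 pathway and the FOXO group, 8 of 14 were tested. With LPS 1 fell in each genotype (9.04% of all probes lower in wild-type and 4.7% in MyD88-/- cells), and with E. coli 2 fell in wild-type (11.8%) and 0 in MyD88-/- cells (4.42%). Mef2a, which binds MEF2 sites such as the one matched in the Klf2 promoter above, fell to -1.44 ± 0.30 with E. coli in wild-type cells (adjusted p = 0.00262, but 0.0917 on unswapped arrays and 0.0711 in a fit on that group alone). Its LPS values of -0.99 in wild-type cells (0.0317) and -1.03 in MyD88-/- cells (0.0371) each lost the call without single mice, and also with scaled arrays (0.111 and 0.05), on unswapped arrays (0.168 and 0.18) and with a dye term (0.0758 and 0.167). The mice were wild-type LPS mouse 1, 2 or 3 for the former (0.0945, 0.151 and 0.0716), and wild-type LPS mouse 1 or any of MyD88-/- LPS mice 1 to 4 for the latter (0.0505 to 0.134). The MyD88-/- value also lost the call with a filter of 2 of 4 mice (0.0526) and a filter on the groups compared (0.0564). Mef2c at -0.57 was the other call, in wild-type E. coli (0.0301), and ended without wild-type E. coli mouse 1, 2 or 3 (0.192, 0.0906 and 0.0583). The Mef2c call also ended in a fit on that group alone (0.124) and with scaled arrays (0.0537). No gene of the list was called higher in a response, where 5.28% to 9.43% of all probes were.

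Genes reported as targets of KLFs in other settings had 11 tested of 18. With LPS 2 were higher and 3 lower in wild-type cells (7.99% and 9.04% of all probes), and again 2 and 3 in MyD88-/- cells (5.28% and 4.7%). With E. coli 2 were higher and 3 lower in wild-type cells (9.43% and 11.8%), and 1 and 3 in MyD88-/- cells (6.35% and 4.42%). The 5 calls of MyD88-/- LPS became 3 without MyD88-/- LPS mouse 1 or 3, and the 4 of MyD88-/- E. coli became 2 without MyD88-/- E. coli mouse 2. Cdkn1a, the cell-cycle inhibitor p21 and a known target of Klf4 and Klf6, rose in all 4 groups by 2.03, 2.25, 2.33 and 2.58 (adjusted p between 2.66e-07 and 2.14e-06). Pparg, a lipid-sensing nuclear receptor, fell in all 4 groups. With LPS it fell to -1.10 ± 0.29 in wild-type (adjusted p = 0.016) and -1.70 ± 0.29 in MyD88-/- cells (0.000988). With E. coli it fell to -1.18 ± 0.29 (0.00854) and -2.19 ± 0.29 (8.57e-05), and its genotype difference was not called (0.708 and 0.292). Txnip, a thioredoxin-binding protein, gave the only genotype calls of the list in the fit on all groups, at 3.58 ± 0.42 for LPS (adjusted p = 0.00108) and 2.68 ± 0.39 for E. coli (0.00303, but 0.0558 on unswapped arrays). Over all probes 0.0683% were called higher in MyD88-/- cells for LPS and 0.205% for E. coli. The fall of Txnip and its difference between genotypes were known from these data when the list was written. Its genotype calls are therefore no independent evidence.

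The probes whose 16 ratios ran most like those of Klf10 were sought among 4698 probes with 1 named gene and all 16 values. They were Apobec1, a cytidine deaminase that edits messenger RNA (Pearson r = 0.946), Sumo3 (0.916), a ubiquitin-like modifier, Ndufb2 (0.907), a subunit of respiratory complex I, the kinase gene Sgk1 (0.90) and Fads1 (0.896), a fatty acid desaturase. Their group means were lower in wild-type than in MyD88-/- cells, for Apobec1 -2.22 and -1.13 with LPS and -2.20 and -1.05 with E. coli, and for Sgk1 -0.45 and 0.84, and -0.52 and 0.92. They were picked for likeness to Klf10, whose ratios split by genotype, so such a split is built into the search. For Klf6 the nearest were Sun1 (r = 0.894), a protein of the nuclear envelope, and Slitrk1 (0.885), and for Klf4 Cul2 (0.812) and Hebp1 (0.808). For Klf3 it was Hcst (0.867), for Klf2 Zfp36l1 (0.792) and for Klf13 Pcbd2 (0.77). These correlations are descriptions over ratios that share genotype and, within an array, its normalization.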

How the data were processed

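RNA of stimulated and mock-treated macrophages was hybridised in 2 colours to spotted arrays. Per the labels, the authors quantified the scans in GenePix Pro and used BASE and GeneSpring for analysis. The deposited values are log2 ratios normalized by the authors, whose background correction, normalization, spot filter and direction are not given in the sources used here. All 15 dye pairs correlated above 0 (r from 0.256 to 0.71), so no array was turned. Column medians lay between -0.122 and 0.0794.

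Values at log2(0.01), -6.64, a floor that held 1.63% of values, were treated as missing, and each dye pair was averaged to 1 ratio. Probes with values in at least 3 of 4 mice of every group were fitted with limma 3.58.1 in R 4.3.3 (1 coefficient per group, lmFit and eBayes), with p adjusted by Benjamini and Hochberg over 7325 probes and a call at 0.05. All p are 2-sided. The fit was tested on simulated data. Symbols come from GEO's platform annotation (11480 of 13872 probes with 1 symbol, 50 with several), promoters from RefSeq.

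The members and lists were chosen with earlier results of these data known. Named genes are all members, genes among the 2 of smallest p of a list in a comparison, and the most alike probes. Genes with several probes are represented in the lists by the probe with most values. Mouse numbers recur between stimuli within a genotype, and the labels do not state that they mark the same animal. Deviations from the group mean of same-numbered mice had correlations of -0.0568 to 0.142 over 8 pairs, and the best match had the same number in 2 of 8, so the mice were not treated as paired. Replicates are mice by their labels. Alternatives were the floor kept, other filters, centred or scaled arrays, unswapped arrays, a dye term, a fit on the groups compared, a replicate block and leaving out each mouse. The fit with a dye term took the 31 arrays as units, with a correlation of 0.118 within a mouse and stimulus. Its p-values are therefore not at the level of mice.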

Additional observations from a re-analysis of the deposited data

Results flagged for a closer look

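Wild-type E. coli mouse 1 stood far from the other mice of its group for Klf3, at -0.36 against 1.21 to 1.49, a gap of 0.851 of the whole range. Its arrays gave -1.11 swapped and 0.40 unswapped. Chance flags about 1 in 20 groups in this way. Klf10 had opposite signs with E. coli, with every wild-type mouse below 0 and every MyD88-/- mouse above 0, and a difference of 1.82. It was chosen for this kind of pattern, so it is given as a description, and the difference was not tested as independent evidence.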

How the results depend on the processing

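The counts here are over all 7 tested members, Klf10 included, so its selected values add 1 to each wild-type response and genotype difference. The 1 called for each genotype difference is Klf10 itself, and without it 0 were called. Without Klf10 the responses had 4, 3, 4 and 2 calls, in the order of groups used above. Klf10 was selected on its ratios, so the persistence of its 1 under alternatives is no evidence. The counts of called members kept within 1.5 times their value for wild-type LPS (4 to 5) and stayed at 0 for both stimulus differences and the interaction under every alternative that could be run. For MyD88-/- LPS the 3 became 1 in a fit on that group alone and ran from 1 to 3 as single mice were left out, and for MyD88-/- E. coli the 2 ran from 1 to 3. For wild-type E. coli the 5 became 3 in a fit on that group alone. For the LPS genotype difference 1 became 2 with a dye term and ran from 1 to 2 without single mice. For the E. coli difference it became 2 on unswapped arrays and 2 with a dye term. Each extra genotype call was Klf6. With the replicate block the counts were 5, 3, 5 and 2 for the responses and 1 for each genotype difference, so the pairing changed no call of a member. Klf10 in MyD88-/- E. coli moved to 0.60 on unswapped arrays.

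Of 1044 member values under alternatives, 30 changed sign, all of them values that were not called. For the LPS genotype difference Klf3 turned to 0.08 and Klf4 to -0.15 with scaled arrays, and Klf13 to -0.12 on unswapped arrays. For E. coli Klf3 turned to 0.00 with centred arrays and Klf4 to 0.02 on unswapped arrays. Klf7 in MyD88-/- LPS turned to -0.03 with a dye term and Klf13 in MyD88-/- E. coli to 0.02 on unswapped arrays. Without single mice the LPS difference ran from -0.44 to 0.02 for Klf2, -0.25 to 0.14 for Klf3, -0.06 to 0.37 for Klf4 and -0.03 to 0.12 for Klf13. The E. coli difference ran from -0.43 to 0.18 for Klf3 and -0.18 to 0.13 for Klf4. The responses ran from -0.10 to 0.02 for Klf6, -0.29 to 0.09 for Klf7 and -0.17 to 0.10 for Klf13 in MyD88-/- E. coli, -0.19 to 0.29 for Klf7 in MyD88-/- LPS and -0.01 to 0.15 for Klf13 in wild-type LPS. Of 750 list counts 71 moved by over 1.5 times. The cause was not tested. The spread of 4 mice limits what can be called.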

Other observations

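Klf2 ratios of mice numbered 3 and 4 lay above those of mice 1 and 2 within each group. Over the 4 groups, mice numbered 1 gave 0.06 to 1.10, those numbered 2 gave 0.48 to 0.70, those numbered 3 gave 1.08 to 1.83 and those numbered 4 gave 0.85 to 1.63. Wild-type and MyD88-/- mice of a number are different animals, and what the numbers share is not given in the sources used here.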
